A study of Homo sapiens and Mus musculus with 92 samples.

Results

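The S100 genes encode small calcium-binding proteins, and 10 of them, S100P, S100A4, S100A6, S100A8, S100A9, S100A10, S100A11, S100A13, S100A16 and S100B, were followed through RNA-seq of HEL cells in which MLL1 or AF9 had been knocked down. The members were found as the rows of both count tables with exactly these symbols, which gave 10 of the 28103 genes listed. The family was chosen on a measured value, the fall of S100P after AF9 KD, so that value is given below as a description with no test. HEL is an established line of human erythroleukemic cells that carries no MLL rearrangement. In the MLL1 experiment, 3 libraries of control cells were compared with 3 libraries of cells carrying MLL1 shRNA #1, and in the AF9 experiment, 2 libraries of control cells were compared with 2 libraries of cells carrying AF9 shRNA #1. The control cells are labelled WT, and the methods of the study describe lentiviral transduction with a TRC control shRNA followed by selection with puromycin, so the control cells may have passed through the same transduction. Each experiment had its own controls, and each gene was targeted by a single shRNA in the cells sequenced. The libraries are not stated to come from separate cultures, so p values measure the spread between these libraries, which may be technical.

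S100 proteins carry a pair of EF-hand motifs each, and most fold as dimers and expose a binding surface when calcium rises inside the cell. Through that surface they hold partners such as annexins, myosin heavy chains and p53, and several are also released from cells and bind receptors such as RAGE (the product of AGER) or TLR4. Most of the human genes lie in a cluster on the long arm of chromosome 1, whereas S100P and S100B lie elsewhere. In blood cells, S100A8 and S100A9 are best known as the abundant cytosolic proteins of neutrophils and monocytes, and S100A4, S100A6, S100A10 and S100A11 are found in many cell types.

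The hairpins and the promoters of the genes that the results turn on are given first. The target of each hairpin is written as the sense strand of the mRNA, with the 7 bases that pair with positions 2 to 8 of the guide strand in capitals. Each target lies in the canonical transcript of its own gene, KMT2A for MLL1 and MLLT3 for AF9, and in that of 0 of the 10 S100 genes.
MLL1 shRNA #1: gcactgttaaacaTTCCACTt
AF9 shRNA #1: ttcaaagcctcacAAATTAAt
The 7-base match of the MLL1 guide occurred in 1 of the 10 S100 transcripts, that of S100B, and in 20.0% of 25919 canonical transcripts. The match of the AF9 guide occurred in 0 of the 10 S100 transcripts and in 27.5% of all. S100P, S100A4 and S100A6 therefore hold neither match, which is a statement on these letters and not on the action of the hairpins.

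Promoters were taken from RefSeq (GRCh38.p14), each with 250 bases before and 50 after the start of the gene, and 9 of the 10 S100 genes had an entry. The motif TATAAA, searched on both strands, and all CG dinucleotides are in capitals. The promoter of S100P (chr4:6693628-6693927, plus strand) is shown because this gene was at the lowest share of control after AF9 KD, and those of S100A4 (chr1:153545757-153546056, minus strand) and S100A6 (chr1:153535942-153536241, minus strand) because both of these nearby genes were lower in all MLL1 KD libraries.
S100P: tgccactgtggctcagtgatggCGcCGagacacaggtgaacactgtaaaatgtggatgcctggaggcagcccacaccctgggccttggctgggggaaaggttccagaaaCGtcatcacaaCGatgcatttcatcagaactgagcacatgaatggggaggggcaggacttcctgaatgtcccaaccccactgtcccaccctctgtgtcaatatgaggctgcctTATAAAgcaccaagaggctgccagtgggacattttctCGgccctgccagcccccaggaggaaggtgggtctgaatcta
S100A4: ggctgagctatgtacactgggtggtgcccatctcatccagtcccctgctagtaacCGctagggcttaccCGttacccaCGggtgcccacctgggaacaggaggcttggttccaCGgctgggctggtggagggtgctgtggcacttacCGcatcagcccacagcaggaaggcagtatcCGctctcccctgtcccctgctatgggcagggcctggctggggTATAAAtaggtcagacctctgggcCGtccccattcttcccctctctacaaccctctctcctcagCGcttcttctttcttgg
S100A6: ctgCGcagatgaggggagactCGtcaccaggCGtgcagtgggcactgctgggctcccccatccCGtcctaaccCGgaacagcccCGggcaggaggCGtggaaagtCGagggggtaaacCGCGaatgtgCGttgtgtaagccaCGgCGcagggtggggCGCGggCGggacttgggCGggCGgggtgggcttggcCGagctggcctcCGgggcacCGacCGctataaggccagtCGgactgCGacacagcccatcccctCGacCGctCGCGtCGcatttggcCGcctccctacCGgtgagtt
The promoters of S100P and S100A4 hold few CG dinucleotides, 5 and 8, beside a median of 14 over 35116 RefSeq promoters of the same length. That of S100A6 holds 31, more than 79.3% of all promoters. TATAAA stands 28 bases before the start of S100P and 31 bases before that of S100A4, is also present in the promoters of S100A8, S100A9 and S100A13, and is found on the sense strand in 7.33% and on either strand in 11.5% of all promoters. The promoters of S100A6, S100A10, S100A11 and S100A16 do not contain these letters. Only this exact motif was searched, and the promoter of S100A6 holds the near form tataag. S100A4 and S100A6, which were lower together with MLL1 KD (described below), thus have promoters of different composition.

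The libraries held 6966345 to 10380241 counts in the MLL1 experiment and 12278989 to 14232408 in the AF9 experiment. Replicate 1 of both groups of the MLL1 experiment stood apart. The chi-square statistic per degree of freedom was 30.0 and 32.9 between control replicate 1 and the other controls but 2.35 between control replicates 2 and 3, and among the MLL1 KD libraries it was 51.8 and 57.7 but 2.64. Control and MLL1 KD replicate 1 deviated together from their group means (r = 0.648). Replicates 2 and 3 were as alike across numbers (r = 0.369 and 0.359) as within them (0.326 and 0.352), so their pairing rests on the labels alone. The fit with the replicate number as a block is given where it changes a call. KMT2A, which encodes MLL1, was at 1321, 1298 and 1256 CPM (reads of the gene relative to the library total, after TMM scaling) in control replicates 1, 2 and 3 and at 812, 814 and 834 CPM in the MLL1 KD replicates. MLLT3, which encodes AF9, was at 547 and 527 CPM in the controls of the AF9 experiment and at 107 and 92.5 CPM in AF9 KD cells. Both targeted genes were lower in every knockdown library than in every control library. KMT2A itself did not pass an adjusted p of 0.05 without the block (log2 fold change -0.66, edgeR adjusted p = 0.0724). With the block it did (-0.66, edgeR adjusted p = 3.5e-07). All 16 erythroid markers had counts in both tables, with HBG2 at 311 CPM in the controls of the MLL1 experiment and 4845 CPM in those of the AF9 experiment. In bulk libraries fewer cells of a type and less RNA per cell cannot be told apart.

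S100A4, S100A6, S100A10 and S100A11 made up most of the S100 mRNA in control cells. Levels between genes are compared as TPM (which corrects for gene length as well as library size). In the controls of the MLL1 experiment, S100A11 was the highest at 324 TPM ± 54.6 (SD, n = 3), followed by S100A4 at 179 ± 51.8 and then by S100A6 at 105 ± 4.09 and S100A10 at 101 ± 25.4, whose ranges overlapped. S100A13 followed at 27.5 TPM ± 1.37, S100P at 16.3 ± 8.70 and S100B at 4.401 ± 0.85, and the ranges of these neighbours did not overlap. S100A9, S100A16 and S100A8 had means of 1.20, 0.70 and 0.37 TPM with overlapping ranges. In the controls of the AF9 experiment the order began with S100A4 at 1247 TPM ± 17.9 (SD, n = 2) and S100A6 at 936 ± 123, ahead of S100A11 at 334 ± 1.42, S100A10 at 179 ± 6.30, S100A13 at 38.1 ± 1.63 and S100P at 21.3 ± 2.97. S100B and S100A16, at 0.70 and 0.47 TPM, overlapped, and S100A8 and S100A9 were listed at 0 in all 4 libraries of this experiment. With the length of the canonical transcript in place of all exons, S100A13 was at 79.4 and 93.2 TPM in the controls of the MLL1 and the AF9 experiment and S100A11 at 231 and 202 TPM, S100P was at 10.2 and 11.2 TPM, and the order of the means from the highest member down to S100B was the same in both experiments.

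**Figure D1:**
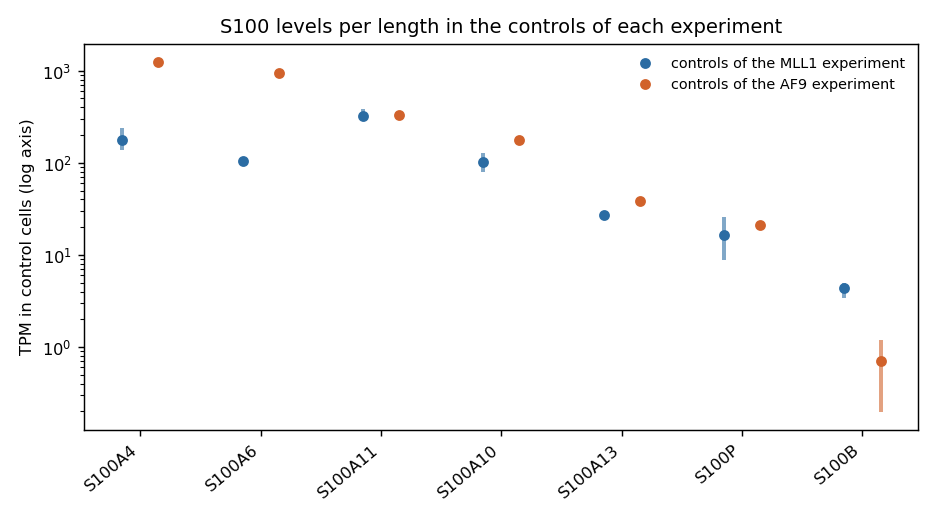
Level of 7 S100 genes in control cells as TPM on a log axis, with the controls of the MLL1 experiment (n = 3) in blue and those of the AF9 experiment (n = 2) in orange. Points are means and bars run from the lowest to the highest library. S100A4 and S100A6 stand far higher in the controls of the AF9 experiment and S100B lower. S100A10 and S100A13 stand higher there by less, with bars that do not overlap, and the bars of S100A11 and S100P overlap.

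Control cells of the same line thus differed between the experiments in S100A4, S100A6 and S100B, while S100A11 was close. The tables were scaled separately, so the ratios that follow are descriptions without a test, and the experiment cannot be told apart from whatever else differed between the cultures. S100A4 was at 43.5 CPM in the controls of the MLL1 experiment and at 277 CPM in those of the AF9 experiment, a ratio of 6.36, and S100A6 was at 26.3 and 214 CPM, a ratio of 8.13. Of 12721 genes expressed in both tables, 1.41% had a ratio at least as high as that of S100A4 and 0.849% one at least as high as that of S100A6. S100B went the other way, with 2.06 and 0.296 CPM. S100P, S100A10, S100A11 and S100A13 had ratios of 1.17, 1.61, 0.94 and 1.26. HBG2 and HBG1, the fetal gamma-globin genes, had ratios of 15.6 and 50.1 between the same controls, and their part in the S100 ratios was not tested.

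With MLL1 KD, S100A4 and S100A6 were each at less than the level of every control library, at 43.6% and 41.5% of the control mean, and S100A11 was above every control library at 1.42-fold. S100A4, a regulator of non-muscle myosin and cell motility, had 435, 249 and 314 counts in control replicates 1, 2 and 3 and 225, 140 and 137 counts in the MLL1 KD replicates, or 56.2, 34.4 and 39.98 CPM against 22.3, 19.8 and 14.8 CPM. The highest MLL1 KD library was below the lowest control library. S100A6, also called calcyclin, had 196, 202 and 201 counts in control cells and 82, 75 and 129 in MLL1 KD cells, or 25.3, 27.9 and 25.6 CPM against 8.12, 10.6 and 13.9 CPM. Its control libraries lay close together and all MLL1 KD libraries lay well below them.

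Whether these differences passed the test depended on the fit. In edgeR's quasi-likelihood test without the block, S100A4 had a log2 fold change of -1.20 (SE 0.24, Benjamini-Hochberg adjusted p = 0.157) and S100A6 one of -1.27 (SE 0.22, adjusted p = 0.127), and 0 of the 9 members tested were called at an adjusted p under 0.05 and a fold change of at least 1.5. In that fit 0.0625% of all genes were called. An unadjusted p under 0.05 was found for 4 members, beside 1435 of 14393 genes. DESeq2 called 2 members, beside 119 genes lower and 113 higher. These counts over all genes also apply to the gene lists of this experiment below. With the replicate number as a block, S100A4 (-1.20, SE 0.14, edgeR adjusted p = 1.9e-05) and S100A6 (-1.29, SE 0.17, adjusted p = 6.5e-05) were called lower, 2 of 9 members beside 2.51% of all genes, and no member was called higher beside 2.22% of all genes. With replicates 2 and 3 alone, the edgeR log2 fold changes were -1.12 (adjusted p = 1.3e-09) and -1.11 (adjusted p = 7.6e-08). This fit leaves out the libraries that stood apart and was chosen after seeing the data. It called 335 genes lower and 361 higher of 14393, and its p values measure the small spread between libraries that lay close together. Over the 9 members the median log2 fold change without the block was -0.03, beside 0.01 over all genes. The exact permutation test on CPM gave p = 0.1 (two-sided) for S100A4 and for S100A6, the smallest value that 3 against 3 libraries allow.

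S100A11, an annexin A1 partner found in the cytoplasm and nucleus, was the only member apart from S100A8 with all MLL1 KD libraries above the controls. It had 486, 378 and 376 counts in control cells and 864, 491 and 700 in MLL1 KD cells, or 62.7, 52.3 and 47.9 CPM against 85.5, 69.6 and 75.6 CPM. The lowest MLL1 KD library, replicate 2, was above the highest control library, replicate 1, by a narrow margin. Its log2 fold change was 0.50 (SE 0.15, edgeR adjusted p = 0.303) without the block and 0.51 (SE 0.10, adjusted p = 0.0019) with it, below the fold change of 1.5 that a call required. Of the 31-base stretches of its transcript, 8.82% also occur in other annotated genes, among them the pseudogenes S100A11P1 and S100A11P2, so its counts could include reads of these copies. Groups did not overlap in 4 of the 9 members (S100A4, S100A6, S100A8 and S100A11) and in 17.7% of all genes tested. S100A8 passed the filter on mean TPM only through its MLL1 KD level, 2.23 TPM beside 0.37 TPM in control cells. Its place in this count was thus partly set by the filter.

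The make-up of the S100 mRNA differed between the groups. S100A4 and S100A6 together held 38.0%, 35.4% and 38.3% of the summed TPM of the 10 members in control replicates 1, 2 and 3, and 15.9%, 18.5% and 16.2% in the MLL1 KD replicates. The sum itself was 896, 697 and 684 TPM in control cells and 809, 668 and 703 TPM in MLL1 KD cells, with overlapping ranges.

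**Figure D2:**
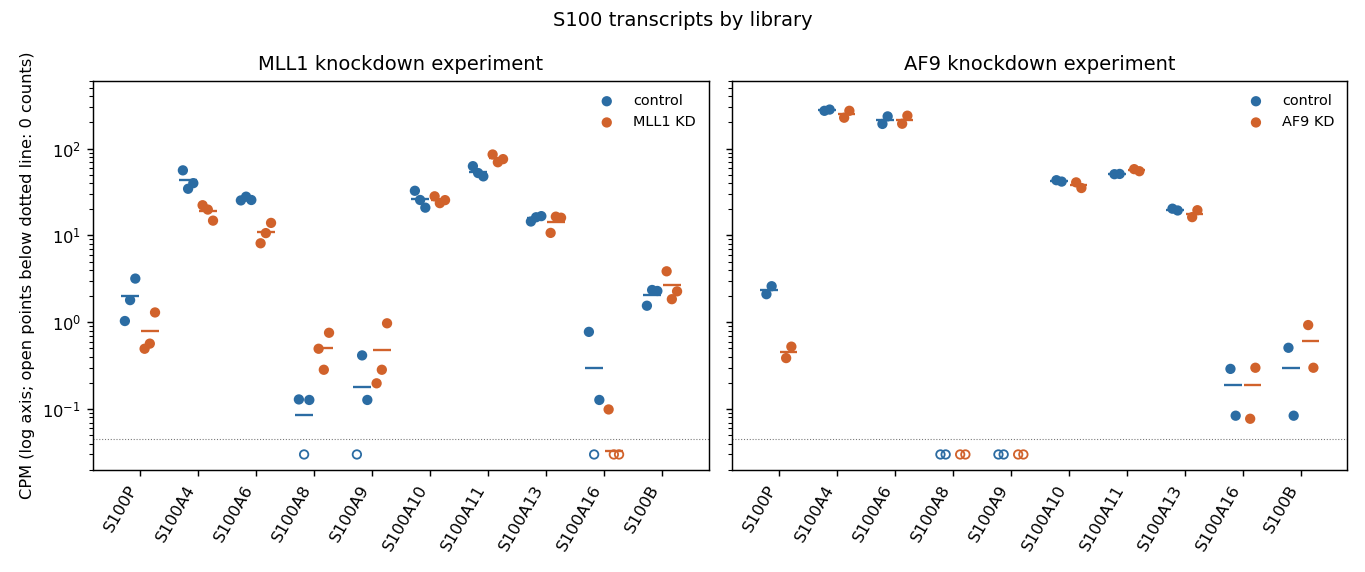
CPM of the 10 S100 genes in each library on a log axis, with control libraries in blue, knockdown libraries in orange and short lines at the group means; open points below the dotted line are libraries with 0 counts. In the MLL1 experiment S100A4 and S100A6 lie lower and S100A11 higher in all knockdown libraries, and in the AF9 experiment S100P lies lower while S100A4 and S100A6 overlap.

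The other members tested in the MLL1 experiment did not pass the test in either fit. S100P, a calcium-binding protein first described in placenta, had 8, 13 and 25 counts in control cells and 5, 4 and 12 in MLL1 KD cells, or 1.03, 1.80 and 3.18 CPM against 0.49, 0.57 and 1.296 CPM. The groups overlapped, since MLL1 KD replicate 3 was above control replicate 1, although each MLL1 KD library was below the control of the same number. Its log2 fold change was -1.33 (SE 0.61, edgeR adjusted p = 0.532) without the block and -1.32 (SE 0.55, adjusted p = 0.129) with it. The interval of 95% ran from -2.74 to 0.086 without the block and from -2.47 to -0.16 with it. S100A10, the partner of annexin A2, was at 32.7, 25.6 and 20.9 CPM in control cells and 28.2, 23.5 and 25.5 CPM in MLL1 KD cells, with a log2 fold change of -0.03 and an interval from -0.50 to 0.43. S100A13, which takes part in the release of proteins that lack a signal peptide, was at 14.5, 16.2 and 16.7 CPM against 10.7, 16.4 and 15.99 CPM, with a log2 fold change of -0.14 and an interval from -0.64 to 0.37. Of its 31-base stretches 43.6% are shared with another annotated gene, so its counts are uncertain. S100B, best known from glia, had 12, 17 and 18 counts in control cells and 39, 13 and 21 in MLL1 KD cells. MLL1 KD replicate 1 alone was above all controls, and the log2 fold change of 0.38 (SE 0.41) turned to -0.17 (SE 0.51) with replicates 2 and 3 alone.

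S100A8 and S100A9, the subunits of calprotectin, were at the edge of detection. S100A8 had 1, 0 and 1 counts in control cells and 5, 2 and 7 in MLL1 KD cells, so all MLL1 KD libraries were above all controls on at most 7 counts. Pooled over libraries, the ratio of MLL1 KD to control was 6.05, with an exact binomial interval of 95% from 1.39 to 54.8 that covers counting error only, and the edgeR adjusted p was 0.453. S100A9 had 0, 3 and 1 counts against 2, 2 and 9, a ratio of 2.81 with an interval from 0.87 to 11.8 and an edgeR adjusted p of 0.764. The difference in the pooled counts of both rests on at most 9 counts in any library. S100A16, with 6, 0 and 1 counts in control cells and 1, 0 and 0 in MLL1 KD cells, fell below a mean TPM of 1 and was not tested. Of 16 markers of myeloid granules and monocytes, 4 were at 0 in every library of the MLL1 experiment (ELANE, AZU1, PRTN3 and CAMP, named after their values were seen), and the summed level of the list was 115 to 127 TPM in control cells and 92.2 to 113 TPM in MLL1 KD cells. Most of that sum came from LYZ and CST3, at 44.2 and 61.2 TPM in control cells and 34.6 and 53.8 TPM in MLL1 KD cells. Some other markers of the list with few counts had higher means in MLL1 KD cells, as S100A8 and S100A9 did, and others had lower means. CTSG, a granule protease, was at 0.354 CPM in control cells and 1.28 CPM in MLL1 KD cells (log2 fold change 1.82, edgeR adjusted p = 0.501), MNDA at 0.138 and 0.808 CPM and FCGR3B at 0.0424 and 0.266 CPM, and MNDA and FCGR3B were below the filter and not tested. These 5 markers were also named after their values were seen, 0 of the 6 tested markers of the list were called in either edgeR fit (1 at an unadjusted p under 0.05 without the block, 0 by DESeq2), and the part of the list in the counts of S100A8 and S100A9 was not tested.

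Some markers of the erythroid and mast cell lineages were lower in the same libraries as S100A4 and S100A6. With the block, 6 of 14 erythroid markers tested were called lower and 0 higher in MLL1 KD cells, led by ALAS2 (-1.78) and HBE1 (-1.29), and without it 0 were called, while 4 had an unadjusted p under 0.05 and DESeq2 called 2. Their summed level was 4809 to 7051 TPM in control cells and 3411 to 5333 TPM in MLL1 KD cells, which overlap. Of 7 mast cell, basophil and eosinophil markers tested, PRG2 (-1.99) and TPSAB1 (-1.52) were called lower without the block and TPSB2 (-1.03) as well with it. The other 4 markers were not called in either fit, CPA3 at -0.22, FCER1A at 0.01, MS4A2 at 0.18 and HDC at 0.50, the last with an edgeR adjusted p of 1.0e-04 with the block but below a fold change of 1.5, and these 4 were named after their values were seen. The summed level of the list was 2634 to 3371 TPM against 2630 to 2685 TPM. The part of these markers in the S100 values was not tested.

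S100A4 and S100A6 lie close together on chromosome 1, with S100A5 between them, at 153543613 to 153550136 and 153534599 to 153536244 of hg38, both on the minus strand, and the genes around them were examined over 100 kb to each side. S100A5 had at most 5 counts in any library, and S100A3, which lies within the span of S100A4 on the same strand, had at most 3. Of the 9 other genes in the window, 3 were tested with MLL1 KD and 0 were called in either fit. S100A2 had a log2 fold change of 0.23 (edgeR adjusted p = 0.970), S100A13 of -0.14 (0.909) and CHTOP, an mRNA export factor, of 0.27 (0.622). S100A2 had at most 5 counts in the MLL1 experiment, and a change of that gene was not detectable at this depth.

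**Figure D3:**
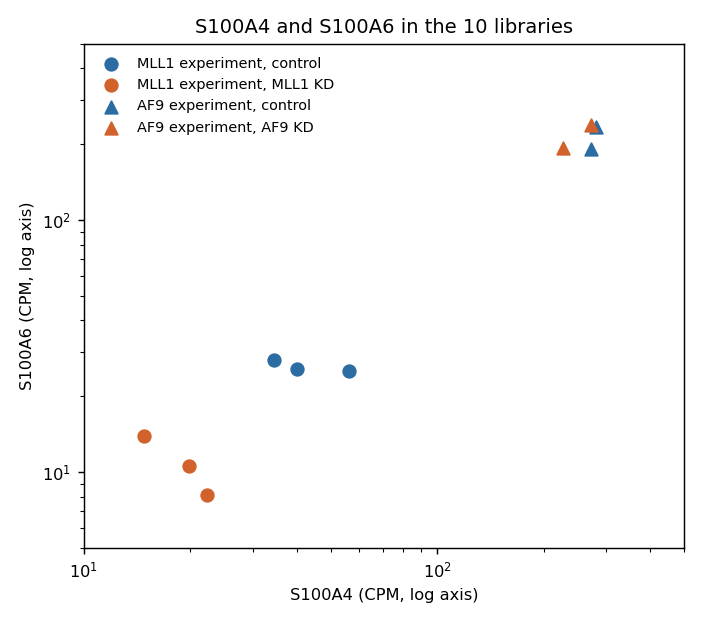
S100A6 against S100A4 in the 10 libraries, both as CPM on log axes, with circles for the MLL1 experiment, triangles for the AF9 experiment, blue for control and orange for knockdown. The 3 MLL1 KD libraries form a group at the lower left, at most 22.3 CPM of S100A4 and 13.9 CPM of S100A6, the 3 controls of the MLL1 experiment lie above them at 34.4 to 56.2 CPM of S100A4, and the 4 libraries of the AF9 experiment, control and AF9 KD together, lie at the upper right.

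With AF9 KD, S100P had the lowest share of its control level among the members. It had 29 and 31 counts in control replicates 1 and 2 and 5 and 7 counts in the AF9 KD replicates, or 2.104 and 2.60 CPM against 0.39 and 0.52 CPM. AF9 KD cells were at 19.3% of control, with means of 2.35 CPM ± 0.35 and 0.46 ± 0.10 (SD, n = 2), and the fitted log2 fold change was -2.34, at or below which lay 39 of the 13331 genes tested, S100P included. This value chose the family, so no test is attached to it, and it rests on at most 31 counts in a library. Leaving out each library in turn gave -2.56 to -2.14, a range that describes the same chosen value and is no support for it. The transcript shares 0% of its 31-base stretches with other annotated genes.

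The other members did not pass the test in AF9 KD cells. S100A4 had 3754 and 3358 counts in the controls against 2933 and 3644 with AF9 KD, or 272 and 282 CPM against 227 and 273 CPM. S100A6 had 2651 and 2801 counts against 2500 and 3200, or 192 and 235 CPM against 193 and 239 CPM. In both genes the groups overlapped. The log2 fold change of S100A4 was -0.15 (SE 0.10, edgeR adjusted p = 0.303) with an interval from -0.37 to 0.07, and that of S100A6 was 0.02 (SE 0.12, adjusted p = 0.925) with an interval from -0.24 to 0.28. With offsets for GC content they were -0.29 (edgeR adjusted p = 0.0216) and -0.39 (adjusted p = 0.0035). With the replicate number added as a block they were -0.29 (edgeR adjusted p = 0.0088) and -0.39 (adjusted p = 4.0e-04). In each case this was less than a fold change of 1.5.

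S100A10 was at 43.2 and 41.7 CPM in the controls against 40.8 and 35.1 CPM with AF9 KD, and S100A11 was at 50.7 and 51.1 CPM against 58.0 and 54.9 CPM. The groups did not overlap in either gene, as in 66.0% of all genes tested in this experiment. Their log2 fold changes were -0.16 (SE 0.12, edgeR adjusted p = 0.331) and 0.15 (SE 0.10, adjusted p = 0.304), so neither passed the test. S100A13 was at 20.3 and 19.4 CPM against 16.2 and 19.5 CPM, with a log2 fold change of -0.15 (SE 0.15, edgeR adjusted p = 0.471). S100B had 7 and 1 counts in the controls against 12 and 4 with AF9 KD, a difference that these counts could not resolve (log2 fold change 0.95, SE 0.78, edgeR adjusted p = 0.392). It passed the filter on mean TPM only through its AF9 KD level, 1.55 TPM beside 0.70 TPM in the controls. S100A16 had 4 and 1 counts against 1 and 4, and S100A8 and S100A9 had 0 in all libraries, for which 3 counts, or 0.211 to 0.244 CPM before TMM scaling, is the limit that a count of 0 allows. These 3 genes were not tested.

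Apart from S100P, 0 of the 6 members tested were called in edgeR, 0 had an unadjusted p under 0.05 and DESeq2 called 0. Over all genes tested, 5419 of 13331 had an unadjusted p under 0.05 in edgeR, and DESeq2 called 561 lower and 801 higher. These counts also apply to the gene lists below. In edgeR, 5.06% of all genes were called lower and 8.02% higher in AF9 KD cells. That split depended on the scaling, since 675 genes were lower and 1069 higher with TMM factors, 440 and 1415 with total counts and 568 and 495 with offsets for GC content.

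**Figure D4:**
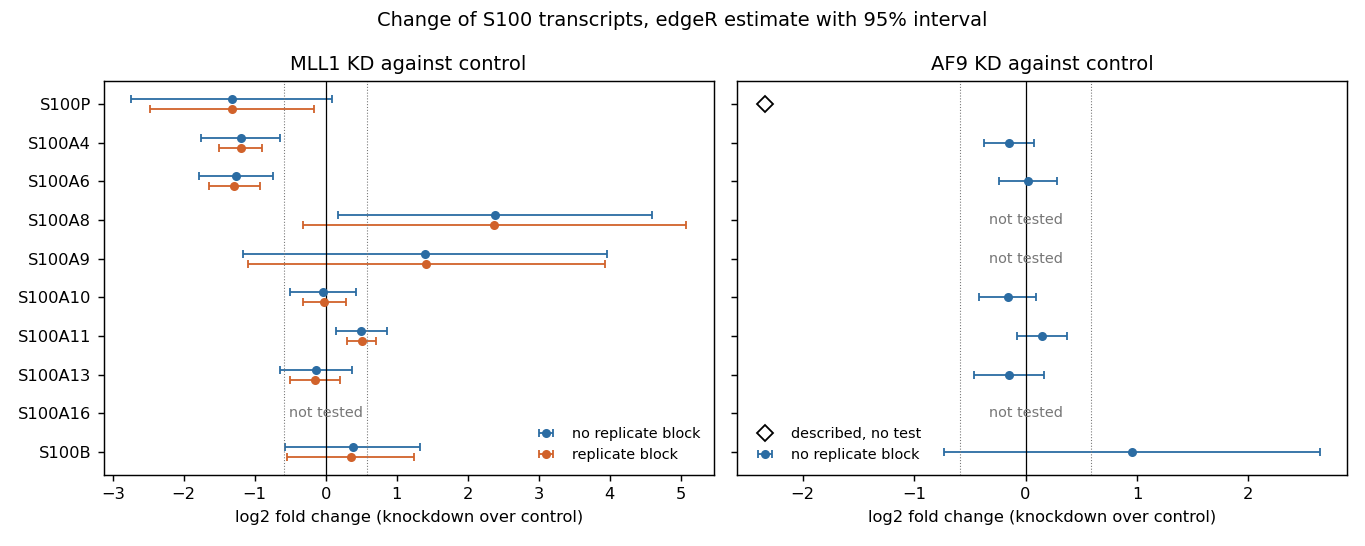
Log2 fold change of each S100 gene in edgeR, with intervals of 95%, for MLL1 KD (left, without the replicate block in blue and with it in orange) and AF9 KD (right); dotted lines mark a fold change of 1.5. The intervals of S100A4 and S100A6 lie below 0 with MLL1 KD and span 0 with AF9 KD; the open diamond of S100P is a description with no interval, and genes below a mean TPM of 1 are marked as not tested.

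The difference between the knockdowns was then tested in 1 fit of all 10 libraries. The log2 fold change with AF9 KD minus that with MLL1 KD was 1.03 (SE 0.30) for S100A4 and 1.27 (SE 0.28) for S100A6, both genes being lower with MLL1 KD and near their controls with AF9 KD, and the edgeR adjusted p values of these differences were 0.125 and 0.0599. Without a block 0 of the 6 members tested passed an adjusted p of 0.05, beside 1.35% of all genes. An unadjusted p under 0.05 was found for 2 members, beside 2208 of 12729 genes. DESeq2 called 2 members, beside 460 genes with a negative and 383 with a positive difference. When only the MLL1 experiment was blocked by replicate number, the differences were 1.03 (SE 0.17, edgeR adjusted p = 3.0e-04) for S100A4 and 1.28 (SE 0.20, adjusted p = 2.3e-04) for S100A6, and 2 of 6 members passed beside 22.3% of all genes. S100A11 had a difference of -0.37 (SE 0.21, adjusted p = 0.397) without and -0.38 (SE 0.15, adjusted p = 0.0738) with that block. S100A10, S100A13 and S100B had differences of -0.15, -0.03 and 0.56 without the block. The differences were not fitted with offsets for GC content. Since the experiments also differed in the control levels of S100A4 and S100A6, knockdown and experiment cannot be told apart in these differences.

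Over the 10 libraries, each taken as its deviation from the mean log2 CPM of its own table, S100A4 was most like S100A6 (r = 0.753) and S100A6 was least like S100A11 (r = -0.857) among the 7 members expressed in both tables. S100P was most like S100A13 (r = 0.583) among the members. Of all genes, those most like S100P were TMF1 (r = 0.964), GPR107 (0.959), ACBD3 (0.956), PCCB (0.955) and USO1 (0.947). These genes had far higher counts than S100P, at least 794 in every library of the AF9 experiment, and smaller log2 fold changes, from -0.94 to -0.30 with AF9 KD and from -0.40 to -0.12 with MLL1 KD. All correlations are descriptions over 10 libraries that share the difference between knockdown and control, and for S100P they were picked as the highest of all genes and include the AF9 KD values that chose the family.

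Among the rest of the S100 family, 11 genes on a fixed list, 10 were in the tables. With MLL1 KD, 1 passed the filter on mean TPM and with AF9 KD 3 did, and 0 were called. S100A1, a heart and muscle protein, had the highest mean TPM of these over all libraries of the AF9 experiment, 2.46 beside 2.14 for S100A2, and a log2 fold change of -0.77 (SE 0.36, edgeR adjusted p = 0.121), and it overlaps S100A13 on the opposite strand, where the strand-specific counting separates the reads.

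Of 25 intracellular partners of S100 proteins, 22 were tested in each experiment. With MLL1 KD 0 were called without the block, 4 had an unadjusted p under 0.05 and DESeq2 called 0. With the block 3 were called higher and 0 lower, ANXA1 (0.94), a membrane-binding protein held by S100A11, CYBB (0.88), the catalytic subunit of the phagocyte NADPH oxidase to which calprotectin binds, and ANXA6 (0.77). With AF9 KD 1 was called higher, CYBA (1.08), the other membrane subunit of that oxidase, and 1 lower, ANXA1 (-0.65). The median log2 fold change of the list was 0.20 with MLL1 KD and 0.03 with AF9 KD, beside 0.01 for all genes in both. ANXA2, the partner of S100A10, which was named for this role after its values were seen, was at 0.21 with MLL1 KD and -0.33 with AF9 KD and was not called (edgeR adjusted p = 0.830 and 0.0626).

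Of 11 cell-surface receptors of released S100 proteins, 10 were tested with MLL1 KD and 9 with AF9 KD. With MLL1 KD 0 were called without the block (2 at an unadjusted p under 0.05, 0 by DESeq2), and with it TLR4, a receptor of calprotectin, was called higher (0.64). With AF9 KD, BSG, which encodes the membrane protein basigin, was called higher (0.83) and CD69, a membrane protein of activated leukocytes, lower (-0.97). AGER, the gene of RAGE, also named after its values were seen, had log2 fold changes of -0.20 and -0.18 and was not called in either experiment (edgeR adjusted p = 0.944 and 0.729).

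Of 33 other EF-hand genes, 29 were tested in each experiment. With MLL1 KD 0 were called without the block, 3 had an unadjusted p under 0.05 and DESeq2 called 1. With the block 2 were called lower, CETN2 (-1.89), which encodes a centrin of the centriole, and CALB2 (-1.87), which encodes the calcium buffer calretinin. With AF9 KD 5 were called lower and 3 higher. CIB3 (-2.42), CALB2 (-1.41), NUCB2 (-0.93) and RCN1 (-0.92), the last a calcium-binding protein of the endoplasmic reticulum, had the largest changes. The value of CIB3 rests on at most 13 counts and a library at 0 (SE 0.80, edgeR adjusted p = 0.0368). The median log2 fold change of the list was -0.05 with MLL1 KD and -0.14 with AF9 KD.

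The remaining marker lists were checked for AF9 KD as well. Of 14 erythroid markers tested, HBG1 (-0.60) and HBG2 (-0.60) were called lower and HBA2 (1.22) and HBA1 (1.15) higher. The summed level of the list was 44593 to 44983 TPM in the controls against 31808 to 38960 TPM with AF9 KD. Of 7 mast cell, basophil and eosinophil markers tested, CPA3 (-2.005), PRG2 (-1.59) and MS4A2 (-1.02) were called lower, at 5850 to 5884 TPM against 3308 to 3900 TPM in sum. Of 4 myeloid markers tested, ITGAM (1.40) was called higher on 12 to 46 counts, and DESeq2 called 0. ITGAM passed the filter on mean TPM only through its AF9 KD level, 2.33 TPM beside 0.81 TPM in the controls. LYZ (-0.39), LTF (-0.37) and CST3 (0.15) were not called, and the myeloid list was at 242 to 256 TPM against 201 to 227 TPM in sum. Of 8 megakaryocyte markers tested, 0 were called in AF9 KD cells (3 at an unadjusted p under 0.05, 0 by DESeq2) and, with the block, PF4 rose (1.19) and TUBB1 fell (-1.02) in MLL1 KD cells. Epithelial markers, listed because S100P and S100A6 are also epithelial genes, stood at 62.0 to 79.5 TPM in sum over all groups of both experiments, and 1 of them, KRT8 (-0.66), was called in MLL1 KD cells with the block. The part of these lists in the value of S100P was not tested.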

How the data were processed

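RNA-seq counts of HEL cells were analysed for 3 control and 3 MLL1 KD libraries and, separately, for 2 control and 2 AF9 KD libraries, and other samples of the series were not analysed here. The authors filtered reads with fastp (0.13.1), mapped them to hg38 with HISAT2 (2.1.0) and counted them per gene, strand-specifically, with featureCounts (1.6.1 per the labels). The deposited values are raw counts for 28103 gene symbols. The annotation behind the symbols is not given in the sources used here, and 92.4% of the symbols matched GENCODE release 44, which gave exon lengths and GC content.

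Counts were tested with edgeR 4.0.16 (R 4.3.3, TMM factors, glmQLFit in its classic setting and glmQLFTest, two-sided) over genes whose mean TPM was 1 or more, with Benjamini-Hochberg adjustment over all genes tested and calls at an adjusted p under 0.05 and a fold change of at least 1.5, or at the adjusted p alone for the difference between knockdowns. Fitted intervals use the moderated degrees of freedom. CPM and TPM are given with SDs, and log2 CPM for correlations used a prior count of 2. Intervals from counts cover counting error only. The fits were tested on simulated data, and no claim rests on the simulation. Alternatives were DESeq2 1.42.0 on the same genes or before the filter, other scalings, filters and thresholds, offsets for GC content, each library left out, and the replicate number as a block. The newer quasi-likelihood method of edgeR, the block in the MLL1 experiment alone and a fit of replicates 2 and 3 alone were chosen after seeing the data.

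Deviations from the group means were correlated between same-numbered libraries of the MLL1 experiment (r = 0.648, 0.326 and 0.352), so the numbers were taken to pair them. However, control replicate 2 with MLL1 KD replicate 3 gave 0.369 and control replicate 3 with MLL1 KD replicate 2 gave 0.359. The values thus show a pairing for replicate 1 only. In the AF9 experiment the 2 pairs gave 0.156 and the libraries share only a number. Named genes are the 10 members, both targeted genes, of each gene list at most 4 called genes with the largest change (if none was called, at most 2 with the highest mean TPM), and the 5 genes most correlated with S100P. Genes around S100A4 and S100A6 were named for their position, and ANXA2, AGER and the uncalled markers of myeloid and mast cells after their values were seen. Besides the members, the lists were other S100 genes, intracellular partners, cell-surface receptors, other EF-hand genes, and erythroid, megakaryocyte, myeloid, mast cell and epithelial markers. The members and lists were chosen with earlier results of these data known.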

Additional observations from a re-analysis of the deposited data

Results flagged for a closer look

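S100A4 and S100A6 are listed here because their response differed between the knockdowns in a test of the difference itself. With the replicate block in the MLL1 experiment alone, a fit chosen after seeing the data, the log2 fold change with AF9 KD exceeded that with MLL1 KD by 1.03 (SE 0.17, edgeR adjusted p = 3.0e-04) for S100A4 and by 1.28 (SE 0.20, edgeR adjusted p = 2.3e-04) for S100A6. All 3 MLL1 KD libraries were below all controls for both genes, whereas the AF9 KD and control libraries overlapped. In that fit 22.3% of all genes passed an adjusted p of 0.05, and without the block the adjusted p values were 0.125 and 0.0599. The controls of the experiments differed 6.36-fold and 8.13-fold in these genes, and the part of this in the difference was not tested. No group had enough libraries for a test of single outlying libraries.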

How the results depend on the processing

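Of the counts of called members under an alternative, 43 were within 1.5 times the reported count and 9 were higher. In the MLL1 experiment 2 members (S100A4 and S100A6) were called, in place of 0, with DESeq2 on the same genes, DESeq2 before the filter, the replicate block, the replicate block with GC content offsets, and replicates 2 and 3 alone, and 0 with any single library left out. For the difference between knockdowns 2 members (S100A4 and S100A6) passed, in place of 0, with DESeq2, the replicate block in both experiments, and the block in the MLL1 experiment alone, and with 1 library left out the count was 0 to 2, the 2 coming without MLL1 KD replicate 1. In the AF9 experiment the count of members other than S100P was 0 under every alternative, the replicate block included, and the block there called 737 genes lower and 1220 higher over all genes. The cause of these changes was not tested. Over all genes, 5 were called lower and 4 higher with MLL1 KD in edgeR, 119 and 113 with DESeq2 and 111 and 107 with DESeq2 before the filter. These counts were 361 and 319 with the replicate block, 358 and 317 with GC content offsets added, and 335 and 361 with replicates 2 and 3 alone. For the difference, 99 genes passed with a negative and 73 with a positive value, and 460 and 383 with DESeq2. With the block in both experiments 1577 and 1528 passed, and 1442 and 1398 with the block in the MLL1 experiment alone. Without MLL1 KD replicate 1, 547 and 422 of 12729 genes passed. Total counts in place of TMM factors moved the median difference between knockdowns of all genes to 0.11.

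Of the log2 fold changes and differences of single genes, 375 kept their direction and side of the threshold, 24 came to pass it and 18 changed sign, all of the last in members that were not called. In the MLL1 experiment S100A10 was at 0.0792 and S100B at -0.17 with replicates 2 and 3 alone, and with 1 library left out S100A10 ran from -0.18 to 0.15 and S100A13 from -0.24 to 0.0394. In the AF9 experiment S100A6 was at -0.39 with GC content offsets and at -0.39 with the replicate block added, and with 1 library left out S100A6 ran from -0.14 to 0.17 and S100B from -0.0507 to 2.72. The difference of S100A13 was 0.0800 with total counts, and with 1 library left out it ran from -0.22 to 0.0862 and that of S100B from -0.44 to 2.30. Depth limits S100P, S100B, S100A8, S100A9 and S100A16, which had at most 39 counts in any library.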
